A study of Homo sapiens with 26 samples.

Results

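Genes of polyamine metabolism and its antizyme control were followed through ribosome footprint libraries of 3 human cell lines: ODC1, OAZ1, OAZ2, AZIN1, AMD1, SRM, SMS and SAT1. They were taken by gene name, with no measured value in the rule, and are 8 of the 19478 coding sequence rows in each of the 4 deposited count tables. All 8 have exactly 1 row in every table. In ribosome profiling, RNase I digests the mRNA that ribosomes do not cover, so a count is a sequenced footprint on a coding sequence.

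Polyamines (putrescine, spermidine and spermine) are small cations that bind nucleic acids and are needed for growth. Ornithine decarboxylase (ODC1) makes putrescine, S-adenosylmethionine decarboxylase (AMD1) supplies the aminopropyl group, and spermidine synthase (SRM) and spermine synthase (SMS) add that group in turn. SAT1 acetylates spermidine and spermine for breakdown and export. Antizymes (OAZ1 and OAZ2) bind ODC1 and send it to the proteasome, and antizyme inhibitor (AZIN1), an inactive relative of ODC1, takes antizyme away from it. Several steps are controlled in translation: full-length antizyme needs a ribosome to shift frame, which polyamines promote, and the leaders of AMD1 and AZIN1 carry upstream reading frames that respond to polyamines.

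The 26 libraries came from HEK293T and HEK293FT, lines of embryonic kidney origin, and K562, an erythroid line from a chronic myeloid leukaemia. All lysates contained cycloheximide, which halts elongating ribosomes, and no group had a genotype change or a drug treatment in its labels. By its title, the series addresses bias from depletion of ribosomal RNA (rRNA) by nuclease. In HEK293T (15 to 35 nt), undepleted, Ribo-Zero Gold, RiboCop and NEBNext groups had 2 libraries each. In the K562 kit experiment (20 to 34 nt), there were 2 libraries each for undepleted, riboPools, its variant with cold elution, and FastSelect, while Ribo-Zero Plus had 1 library alone and 1 each with oligos, formaldehyde or both. The K562 size experiment had 1 NEBNext and 1 undepleted library at 20 to 34 nt and at 20 to 60 nt. HEK293FT (15 to 35 nt) had 1 undepleted library and 1 depleted with custom oligos. Nuclease digestion of rRNA is the principle of NEBNext and Ribo-Zero Plus. Capture on beads is used by RiboCop, riboPools and Ribo-Zero Gold, and FastSelect keeps rRNA from being reverse transcribed.

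Totals per library were 120019 to 421521 counts in HEK293T, 46858 to 441249 in the K562 size experiment, 116742 to 5795774 in the K562 kit experiment, and 900763 and 5747772 in HEK293FT. Where oligos or formaldehyde were added to Ribo-Zero Plus, the 3 libraries stand apart by low totals and by the values given below. Both undepleted libraries of the K562 size experiment carry another label that names NEBNext. They are grouped here by title, so every direction drawn from that experiment rests on the titles. The cell line labels were checked against markers. All 10 erythroid genes used as K562 markers had counts in both K562 experiments, summing to 3803 to 12980 CPM (a count scaled to its library's total). HEK293T had counts for 1 of them (0 to 6.516 CPM summed) and HEK293FT for 3 (0 to 0.8699 CPM), with GATA1, HBG1 and HBG2 at 0 in both lines. Of the 7 kidney line markers, all had counts in HEK293T (1517 to 1864 CPM) and HEK293FT (1308 to 1346 CPM), while CDKN2A, NEFM and PAX2 were at 0 in every K562 library. CRMP1, INA and NEFL were at 0 in the K562 size experiment but had counts in the K562 kit experiment, where 4 of the 7 were detected. The list also holds VIM, which K562 expresses (575.2 to 1054 CPM for the list in K562).

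The shift sites of both antizymes are shown first because they decide what an antizyme count covers. The coding sequences annotated for OAZ1 and OAZ2 are modelled across the frameshift by leaving out a single base, so the upstream and the shifted frame form 1 row. Around that point, 90 bases of each joined coding sequence read 5′ to 3′ as follows, with capitals marking the run that both genes share without a difference.
OAZ1: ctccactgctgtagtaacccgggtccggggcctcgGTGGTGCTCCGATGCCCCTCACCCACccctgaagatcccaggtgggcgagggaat
OAZ2: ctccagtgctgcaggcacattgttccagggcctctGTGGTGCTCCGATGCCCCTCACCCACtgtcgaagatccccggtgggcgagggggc
The shared run is 26 bases long, and 72 of the 90 bases (80.0%) are the same. The OAZ1 stretch lies at chr19:2271398-2271488 on the plus strand and the OAZ2 stretch at chr15:64691470-64691560 on the minus strand (GRCh38, GENCODE release 29). The omitted bases are at positions 2271443 and 64691515, directly after the codon TCC in both. In OAZ1, 204 coding bases (68 codons) come before the shift and 480 after it, so 70.2% of the row lies in the shifted frame. In OAZ2, 96 bases (32 codons) come before and 471 after, or 83.1%. The tables give 1 count per row, so ribosomes before and after the shift were not separated and the frameshift itself was not measured.

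For AMD1, the upstream reading frame is shown because its ribosomes lie outside the counted region. On the plus strand at chr6:110874796-110874816 it reads as follows, with the start and stop codons in capitals.
AMD1 upstream frame: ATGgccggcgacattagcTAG
This frame of 6 codons and a stop is the only upstream ATG in the 336-base leader, spans bases 27 to 47 of the transcript and ends 289 bases before the coding start. The AZIN1 leader is 1164 bases long and has 6 upstream ATGs, each with a stop in frame within the leader. ODC1 and OAZ2 have 2 such frames each in leaders of 511 and 233 bases, SAT1 has 1 (and 2 upstream ATGs) in 179 bases, and SMS has 1 upstream ATG in 252 bases whose frame does not close there. OAZ1 and SRM, with leaders of 79 and 81 bases, have none. Only ATG starts were searched for, so a frame with another start codon would be missed. Whether any of these listed frames responds to polyamines was not tested. The counts below say nothing of ribosomes on these frames.

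The 8 coding sequences differ in length and base content. The longest are ODC1 (1383 nt, ENST00000234111.8, 12 exons, chr2:10439968-10448504, minus strand) and AZIN1 (1344 nt, ENST00000337198.9, 12 exons, chr8:102826357-102864737, minus). SMS (ENST00000404933.6, 11 exons, chrX:21940573-21994835, plus) has 1098 nt, and AMD1 (ENST00000368885.7, 9 exons, chr6:110874770-110895713, plus) has 1002 nt. SRM (ENST00000376957.6, 8 exons, chr1:11054589-11060024, minus) has 906 nt. OAZ1 (684 nt, ENST00000602676.6, chr19:2269520-2273490, plus), OAZ2 (567 nt, ENST00000326005.10, chr15:64687573-64703281, minus) and SAT1 (513 nt, ENST00000379270.4, chrX:23783173-23786226, plus) are short, with 6 exons each. The GC content of SRM (61.9%) and OAZ1 (58.9%) was above the median of all rows (52.9%), and that of AZIN1 (39.6%) and AMD1 (42.8%) was at percentiles 4.6 and 14.7. The other members lay between 45.4% and 52.0%. Pseudogenes are named after AMD1 (4) and SRM (2). Copies that do not carry a member's symbol were not searched for. How the authors counted reads shared with such copies is not given in the sources used here. The values of AMD1 and SRM at least are uncertain to that extent.

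Together the 8 genes took 671.4 to 1108 CPM of each HEK293T library, 942 to 1550 CPM in the K562 kit experiment, 1025 to 1352 CPM in the K562 size experiment, and 957 and 971.9 CPM in HEK293FT. To compare genes with each other, the count was also divided by coding length, giving a footprint density in CPM per kb. OAZ1 had the highest density in every undepleted library. In HEK293T it averaged 312.9 ± 29.1 CPM per kb (SD, n = 2), followed by SRM at 271 ± 6.91, ODC1 at 174.3 ± 33.4 and SMS at 131.6 ± 57.3. OAZ2 (91.66 ± 15.9), AMD1 (45.36 ± 18.2), AZIN1 (33.54 ± 21.1) and SAT1 (6.351 ± 8.98) were below them. The ranges of ODC1 and SMS, of SMS and OAZ2, and of AMD1 and AZIN1 overlapped, so their order there is not settled.

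In the undepleted libraries of the K562 kit experiment the density of OAZ1 was 439.8 ± 20.8 CPM per kb (SD, n = 2), and ODC1 came second at 222.6 ± 8.55, ahead of SRM at 157.6 ± 7.05 and SMS at 115.1 ± 11.9. AMD1 (73.05 ± 8.84) and AZIN1 (63.67 ± 15) overlapped, OAZ2 followed at 21.05 ± 3.18 and SAT1 at 5.495 ± 2.92. HEK293FT kept the order OAZ1 (378.2), SRM (270.8), ODC1 (160.5) seen in HEK293T, from 1 library with no replicate. Below these came SMS (84.93), AMD1 (77.56), OAZ2 (56.78), AZIN1 (17.35) and SAT1 (8.656 CPM per kb). There the Poisson intervals of SMS and AMD1, AMD1 and OAZ2, and AZIN1 and SAT1 overlapped. In undepleted libraries SRM therefore changed rank, ahead of ODC1 in both kidney lines and behind it in the K562 kit experiment. OAZ2 stood above AZIN1 in the undepleted kidney lines and below it in the K562 kit experiment. In HEK293T that order rests on 7 OAZ2 counts in each library against 3 and 10 of AZIN1. It did not hold with NEBNext in HEK293T, where AZIN1 had 39.07 and 44.4 and OAZ2 13.23 and 35.08 CPM per kb. Ribo-Zero Gold and RiboCop each had AZIN1 ahead in replicate 1 and OAZ2 ahead in replicate 2.

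**Figure D1:**
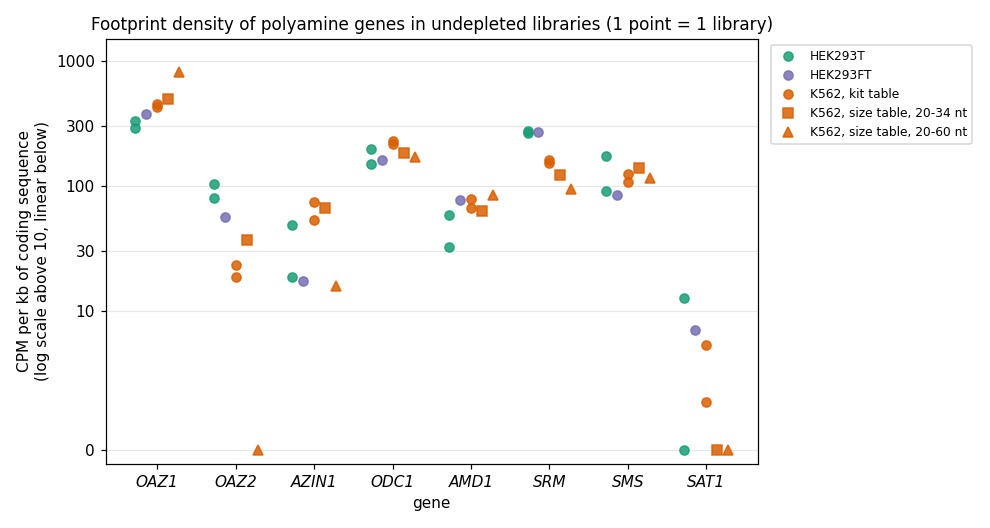
Footprint density (CPM per kb of coding sequence, log scale above 10 and linear below) of each gene in the 7 undepleted libraries, 1 point per library, coloured by cell line. OAZ1 lies at the top in every library (292.4 to 811.2 CPM per kb) and SAT1 at the bottom (tied at 0 with OAZ2 in the K562 library of 20 to 60 nt), while OAZ2 is lower and ODC1 and OAZ1 are higher in the K562 kit libraries than in either kidney line.

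ODC1, the enzyme that starts the pathway, was higher in the K562 kit libraries than in either kidney line, by a small margin. The undepleted libraries held 208.3 and 273.7 CPM in HEK293T (25 and 42 counts), 222 CPM in HEK293FT (200 counts), and 316.2 and 299.5 CPM in the K562 kit experiment (359 and 309 counts). Both K562 kit libraries were above all 3 kidney line libraries. The K562 size libraries, at 252.3 and 234.8 CPM (48 and 11 counts), were not. Against HEK293T the K562 kit libraries had a log2 fold change of 0.44 ± 0.19 (SE; edgeR quasi-likelihood test, Benjamini-Hochberg adjusted p 0.0391), and against HEK293FT 0.46 ± 0.12 (adjusted p 0.000409). Of 5551 genes tested, 44.3% were called in the first comparison and 60.7% in the second. Cell line and experiment differ together here, so their parts in these differences cannot be told apart.

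OAZ1, the main antizyme, was likewise higher in K562 than in HEK293T. It had 200 and 228.1 CPM in HEK293T (24 and 35 counts), 258.7 CPM in HEK293FT, 310.9 and 290.7 CPM in the K562 kit experiment, and 336.4 and 554.9 CPM in the K562 size experiment. No undepleted K562 library overlapped the undepleted kidney line libraries. The log2 fold change against HEK293T was 0.59 ± 0.19 for the K562 kit libraries (edgeR adjusted p 0.00674) and 0.91 ± 0.25 for the K562 size libraries (adjusted p 0.00163; 29.1% of genes called). Against HEK293FT it was 0.20 ± 0.12 (adjusted p 0.12), which did not pass, although it did without the K562 size libraries in the fit (0.33, adjusted p 0.00889). The value of 554.9 CPM rests on 26 counts in the library of 20 to 60 nt.

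Set against each other per length, OAZ1 exceeded ODC1 in every undepleted library. The ratio of their densities was 1.94 and 1.68 in HEK293T, 1.99 and 1.96 in the K562 kit experiment, and 2.36 in HEK293FT. It was 2.7 at 20 to 34 nt and 4.78 at 20 to 60 nt in the K562 size experiment, where NEBNext gave 3.78 and 5.52. Over the depleted libraries of the other experiments it ran from 1.19 (Ribo-Zero Plus with oligos) to 2.51 (custom oligos in HEK293FT).

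OAZ2, a second antizyme with the same control, went the other way. Undepleted HEK293T libraries had 58.32 and 45.61 CPM, each from 7 counts, HEK293FT had 32.19 CPM (29 counts), and the K562 kit libraries had 13.21 and 10.66 CPM (15 and 11 counts). Both undepleted K562 kit libraries lay below all undepleted kidney line libraries. The log2 fold change was -1.96 ± 0.67 against HEK293T (edgeR adjusted p 0.0103) and -1.42 ± 0.53 against HEK293FT (adjusted p 0.0131). In the K562 size experiment it had 21.03 and 0 CPM (4 and 0 counts), and the log2 fold change of -1.50 against HEK293T had an adjusted p of 0.239.

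AZIN1, the antizyme inhibitor, was higher in K562. Its undepleted libraries held 25 and 65.16 CPM in HEK293T (3 and 10 counts), 23.31 CPM in HEK293FT (21 counts), and 71.34 and 99.82 CPM in the K562 kit experiment (81 and 103 counts). Against HEK293FT the K562 kit libraries were higher by 1.84 ± 0.29 on the log2 scale (edgeR adjusted p 1.58e-09). Against HEK293T it was 0.95 ± 0.39 (adjusted p 0.0342). It ran from 0.61 without HEK293T undepleted replicate 1 to 2.0 without replicate 2. The size experiment gave 89.36 CPM at 20 to 34 nt and 21.34 CPM from 1 count at 20 to 60 nt, with an adjusted p of 0.281 against HEK293T. The density of AZIN1 relative to OAZ1 was 0.117 and 0.175 in the K562 kit libraries, 0.0636 and 0.145 in HEK293T and 0.0459 in HEK293FT. The size libraries gave 0.135 and, from 1 AZIN1 count, 0.0196.

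AMD1, which supplies decarboxylated S-adenosylmethionine, was not called between any pair of lines in the fit over all undepleted libraries. It had 58.32 and 32.58 CPM in undepleted HEK293T from 7 and 5 counts, 77.71 CPM in HEK293FT, and 66.93 and 79.47 CPM in the K562 kit experiment. HEK293FT lay between both K562 libraries, with a log2 difference of -0.11 ± 0.22 (95% interval -0.53 to 0.31). Against HEK293T the log2 fold changes were 0.84 for the K562 kit libraries (edgeR adjusted p 0.0782) and 0.95 for HEK293FT (adjusted p 0.195). These comparisons share the HEK293T libraries. Without the K562 size libraries in the fit, the first of them passed (0.98, adjusted p 0.0395).

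SRM and SMS, which act one after the other, differed between lines in unlike ways. SRM had 250 and 241.1 CPM in HEK293T and 245.3 CPM in HEK293FT, against 138.3 and 147.3 CPM in the K562 kit experiment and 110.4 and 85.36 CPM in the K562 size experiment. For SRM, every undepleted K562 library was below every undepleted kidney line library, with 21 and 4 counts in the size libraries. Its log2 fold change was -0.67 ± 0.21 against HEK293T (edgeR adjusted p 0.00573), -0.80 ± 0.14 against HEK293FT (adjusted p 5.42e-08), and -1.12 ± 0.33 for the size libraries against HEK293T (adjusted p 0.00485). That last call was lost when any single library was left out (adjusted p 0.0528 to 0.195). SMS had 99.98 and 189 CPM in HEK293T (12 and 29 counts) and 93.25 CPM in HEK293FT. In K562 it had 117.1 and 135.7 CPM in the kit libraries, and 152.4 and 128 CPM (29 and 6 counts) in the size libraries. The K562 kit libraries lay between both HEK293T values, with a log2 fold change of -0.14 ± 0.25 (adjusted p 0.686), and above HEK293FT (0.42 ± 0.18, adjusted p 0.0404). The ratio of SRM to SMS density was 1.43 and 1.32 in the K562 kit libraries, 0.878 and 0.808 in the size libraries, 3.19 in HEK293FT, and 3.03 and 1.55 in HEK293T.

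SAT1, the acetyltransferase of polyamine breakdown, was low in all 3 lines and near the limit of detection in their undepleted libraries. It had 0 and 1 counts in undepleted HEK293T, 4 in HEK293FT (4.441 CPM), 2 and 4 in the K562 kit libraries (1.761 and 3.876 CPM), and 0 in both K562 size libraries. The highest value in any library was 14.23 CPM, from 6 counts with Ribo-Zero Gold. In deeper libraries SAT1 had 3.641 and 3.106 CPM with cold elution in K562 (21 and 18 counts). Custom oligos in HEK293FT gave 3.654 CPM (21 counts). A count of 0 in undepleted HEK293T replicate 1 allows up to 25 CPM by the floor of 3 counts, so a difference in SAT1 between lines was not detectable at this depth. It did not pass the filter on low counts in the fit over undepleted libraries and was not tested there.

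Between the K562 kit libraries and HEK293T, 5 of the 7 members tested were called, ODC1, OAZ1 and AZIN1 higher (22% of all genes were) and OAZ2 and SRM lower (22.3% of all genes). The median log2 fold change was 0.44 over the 7 members and -0.01 over all genes tested. Without HEK293T undepleted replicate 1, the library with fewer counts, none of the 5 passed, with adjusted p from 0.0501 to 0.352 and the same directions. SRM was also lost without HEK293T undepleted replicate 2 (0.194), OAZ2 without either K562 library (0.0656 and 0.0962), AZIN1 without K562 undepleted replicate 2 (0.174) and ODC1 without replicate 1 (0.0806). Total count scaling and DESeq2 each kept OAZ2 and SRM and lost ODC1, OAZ1 and AZIN1. Total count scaling lowered the median of all genes from -0.01 to -0.16. The K562 size libraries had 1 member higher (OAZ1, 15.9% of all genes) and 1 lower (SRM, 13.3%) against HEK293T. Between the K562 kit libraries and HEK293FT, 5 of 7 were called as well: ODC1, AZIN1 and SMS higher (29.3% of all genes) and OAZ2 and SRM lower (31.3%). The median was 0.20 over the members and -0.04 over all genes. DESeq2 kept AZIN1 and SRM alone, OAZ2 was lost without either K562 library (adjusted p 0.147 and 0.215), and SMS without K562 undepleted replicate 2 (0.218). The HEK293FT side is 1 library, assumed in the fit to vary like the others. Between HEK293FT and HEK293T 0 of 7 were called (7.57% of all genes), with 1 below an unadjusted p of 0.05 (AMD1, 0.0263), and DESeq2 called 0. Between both K562 experiments 0 of 7 were called (0.288% of all genes), none of them below an unadjusted p of 0.05, and DESeq2 called 0.

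**Figure D2:**
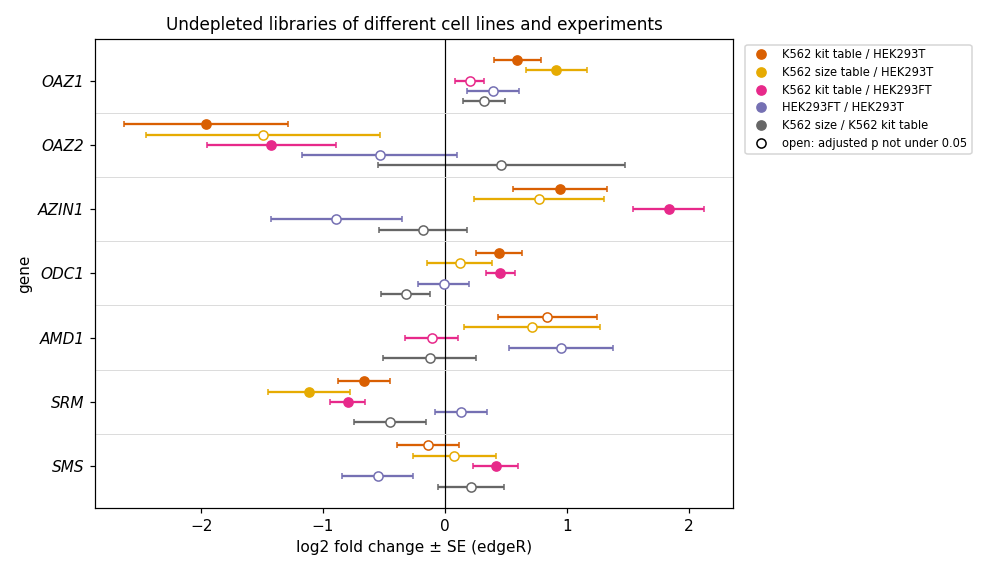
Log2 fold change ± SE (edgeR) of the 7 members tested in each comparison of undepleted libraries. Filled points have an adjusted p under 0.05. SRM lies below 0 in every comparison of K562 with a kidney line, OAZ2 in each as well, and the HEK293FT and HEK293T comparison has open points only.

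The lines were compared again in more deeply sequenced libraries, using the bead capture and blocking kits instead of the undepleted ones: 6 K562 libraries (FastSelect, riboPools and cold elution) against 4 of HEK293T (Ribo-Zero Gold and RiboCop). Of 10905 genes, 61.7% were called, 32.7% higher and 29% lower. OAZ1 had 287.1 to 335.5 CPM in K562 and 189.8 to 236.9 CPM in HEK293T, without overlap (log2 fold change 0.87, edgeR adjusted p 4.14e-22). AZIN1 had 88.95 to 97.66 against 42.7 to 57.62 CPM (1.16, adjusted p 4.14e-11), and SRM 129.7 to 145.3 against 196.4 to 288.1 CPM (-0.54, adjusted p 1.34e-07), both without overlap. ODC1 (0.54, adjusted p 8.43e-10) and OAZ2 (-0.91, adjusted p 0.00572) overlapped in part but were called in the same directions as before.

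SMS and AMD1 came out otherwise with these libraries. SMS had 133.6 to 163 CPM in K562 and 118.6 to 137.7 CPM in HEK293T and was called higher (0.52, edgeR adjusted p 2.34e-05), the opposite sign to its uncalled value in undepleted libraries. AMD1 had 68.46 to 78.72 CPM in K562 and 80.66 to 108.8 CPM in HEK293T, yet after TMM scaling its fold change on the log2 scale was -0.0009 (adjusted p 0.996). SAT1 gave -0.67 (adjusted p 0.41). All fold changes of this comparison, those of OAZ1, AZIN1 and SRM included, carry the same TMM scaling as AMD1. The CPM ranges of ODC1 and SMS overlap between the lines. Total count scaling, which lost the ODC1 call in undepleted libraries, was not run on these libraries. Kit, size selection and experiment differ between the lines here too and cannot be told apart from cell line.

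**Figure D3:**
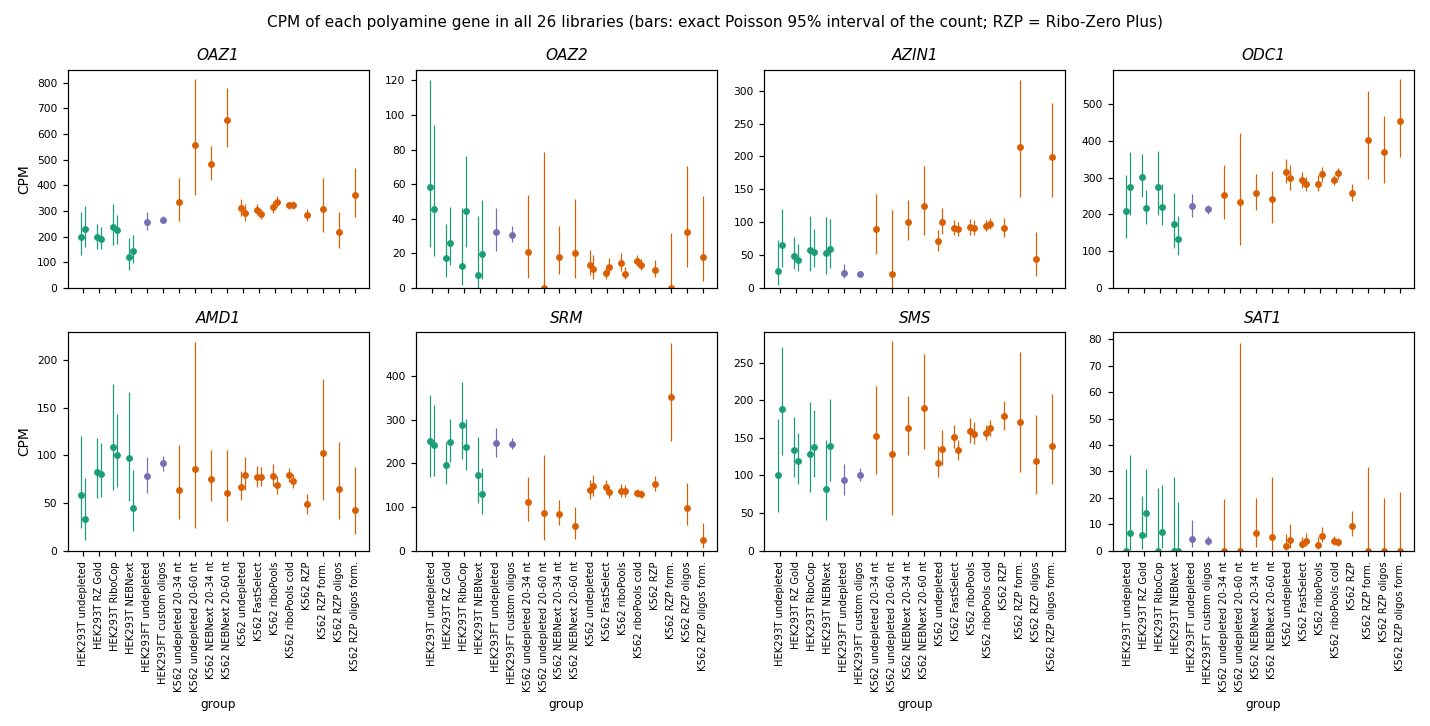
CPM of each gene in all 26 libraries, with exact Poisson 95% intervals of the count as bars (counting error only) and colours for HEK293T (green), HEK293FT (purple) and K562 (orange); each panel starts at 0 and has its own scale. OAZ1 and AZIN1 sit higher and SRM lower in the K562 bead and blocking kit libraries than in the HEK293T bead kit libraries. In HEK293T NEBNext replicate 2, SRM had 129.3 CPM, below the K562 range of 129.7 to 145.3 CPM for these kits. The shallow Ribo-Zero Plus (RZP) libraries with formaldehyde (form.) or oligos scatter widely, for example SRM from 24.22 to 351.2 CPM.

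The effect of depletion was then examined within each experiment. With NEBNext in HEK293T, OAZ1 had 120 and 144.2 CPM against 200 and 228.1 CPM without depletion, ODC1 172.5 and 134.3 against 208.3 and 273.7 CPM, and SRM 172.5 and 129.3 against 250 and 241.1 CPM. In all 3 genes both NEBNext libraries were below both undepleted ones. The log2 fold changes were -0.66 ± 0.29, -0.69 ± 0.28 and -0.72 ± 0.28, with edgeR adjusted p of 0.237, 0.181 and 0.154, so none passed. These values rest on 16 to 42 counts per library. AZIN1 (0.27 ± 0.56), AMD1 (0.60 ± 0.51) and SMS (-0.35 ± 0.33) were not called either. In all, 0 of 6 members tested were called against 3.24% of 4410 genes, with 3 at an unadjusted p under 0.05, and DESeq2 called 0. The median log2 fold change was -0.50 over the members and 0.00198 over all genes.

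In the NEBNext libraries of K562, SRM had the lower value in both size pairs, while OAZ1 and ODC1 did not. OAZ1 had 482.7 CPM with NEBNext against 336.4 CPM without at 20 to 34 nt, and 656 against 554.9 CPM at 20 to 60 nt. Its log2 fold change was 0.48 ± 0.21 (edgeR adjusted p 0.238). ODC1 had 258.4 against 252.3 CPM and 240.4 against 234.8 CPM, and SRM 83.85 against 110.4 and 55.08 against 85.36 CPM (log2 fold change -0.39, adjusted p 0.769). None of the 6 members tested was called, against 2.72% of 3715 genes, with 1 (OAZ1) at an unadjusted p under 0.05, and DESeq2 called 0. The difference of the NEBNext effect between K562 and HEK293T was tested directly. It was 1.17 ± 0.35 for OAZ1 (adjusted p 0.198), 0.79 ± 0.38 for ODC1 (adjusted p 0.559) and 0.35 ± 0.49 for SRM (adjusted p 0.93), and 0 of 6 members passed against 0.296% of 4736 genes. OAZ1 and ODC1 were at an unadjusted p under 0.05 (0.00151 and 0.0388), and DESeq2 called 0.

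With the bead capture kits of HEK293T no member tested was called. Ribo-Zero Gold gave OAZ1 196.4 and 189.8 CPM and ODC1 301.7 and 215.9 CPM, and RiboCop gave OAZ1 236.9 and 223.8 CPM and ODC1 275.3 and 220.3 CPM. Among the 6 members tested, AMD1 was farthest from undepleted, at 82.53 and 80.66 CPM with Ribo-Zero Gold and 108.8 and 99.83 CPM with RiboCop against 58.32 and 32.58 CPM. Its log2 fold changes of 0.88 ± 0.43 and 1.22 ± 0.44 had edgeR adjusted p of 0.846 and 0.998. Both kits had 0 of 6 members called (0.068% and 0% of 4410 genes), each with AMD1 alone at an unadjusted p under 0.05, and DESeq2 called 0. The lower undepleted AMD1 values rest on 7 and 5 counts. OAZ2, too low to be tested, had 17.08 and 26.1 CPM with Ribo-Zero Gold and 12.8 and 44.75 CPM with RiboCop, from 2 to 13 counts, all below the undepleted 58.32 and 45.61 CPM.

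The K562 kit experiment was the deepest and gave the narrowest errors. With FastSelect, riboPools and cold elution, ODC1 stayed between 281.3 and 311.4 CPM and OAZ1 between 287.1 and 335.5 CPM, around the undepleted 299.5 and 316.2, and 290.7 and 310.9 CPM. For OAZ1 the log2 differences were -0.03 ± 0.07, 0.11 ± 0.07 and 0.09 ± 0.06. SMS was the member with the largest shift relative to its error: 151.6 and 133.6 CPM with FastSelect, 158.8 and 155.7 CPM with riboPools and 156.7 and 163 CPM with cold elution, against 117.1 and 135.7 CPM. Its log2 fold changes were 0.17 ± 0.10, 0.32 ± 0.10 and 0.34 ± 0.09, with edgeR adjusted p of 0.912, 0.576 and 0.119. These 3 comparisons share the undepleted libraries. None of the 8 members was called with any of the 3 kits, where 0.0205%, 0.082% and 0.225% of 9761 genes were. SMS alone was at an unadjusted p under 0.05, with riboPools (0.00222) and cold elution (0.000401), and DESeq2 called 0.

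Among the depletions tested with edgeR, members were called with Ribo-Zero Plus alone only, a nuclease kit with 1 library of 1840190 counts. SMS was higher, at 178.8 CPM against 117.1 and 135.7 CPM undepleted (log2 fold change 0.52 ± 0.12, edgeR adjusted p 0.00073). AMD1 was lower, at 48.36 against 66.93 and 79.47 CPM (-0.57 ± 0.19, adjusted p 0.0217), and ODC1 was lower, at 258.7 against 316.2 and 299.5 CPM (-0.24 ± 0.09, adjusted p 0.0437). Each of the 3 lay outside the undepleted range. OAZ1 (283.7 CPM), OAZ2 (10.33), AZIN1 (90.75) and SRM (152.7 CPM) were not called, and SAT1, at 9.238 CPM from 17 counts, had an adjusted p of 0.0536. The 3 calls among 8 members stand beside 20.6% of 10078 genes called, 8.95% higher and 11.7% lower. The lone library is assumed to vary like the other groups, and with all 12 libraries in the fit none of the 3 passed (adjusted p 0.255 for ODC1, 0.247 for AMD1 and 0.0745 for SMS). The ODC1 call was also lost, though not in direction, without either undepleted replicate (adjusted p 0.228 and 0.0594), and the AMD1 call without undepleted replicate 2 (0.18). DESeq2 kept SMS alone. With riboPools and cold elution SMS was also above both undepleted libraries (155.7 to 163 CPM), without a call.

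Members differed widely where oligos or formaldehyde were added to Ribo-Zero Plus. AZIN1 had 214.1 CPM with formaldehyde (25 counts), 43.31 with oligos (8 counts) and 199.8 with both (33 counts), against 90.75 CPM in the library with neither. SRM had 351.2, 97.44 and 24.22 CPM (41, 18 and 4 counts), and ODC1 402.6, 368.1 and 454.1 CPM. All 3 libraries were above the undepleted ones for ODC1, while SRM was spread to both sides. The mean of the 4 Ribo-Zero Plus libraries had 0 of 8 members called against 14.9% of 9628 genes, with 0 at an unadjusted p under 0.05 and 1 called by DESeq2 (AZIN1, 0.56 on the log2 scale, adjusted p 0.048). The median log2 fold change was -0.07 over the members and -0.43 over all genes. Oligos and formaldehyde were additive terms, so leaving out the formaldehyde library or the oligo library gives the same estimate, the mean of the library with neither and the one with both. In that estimate AZIN1 (0.60), AMD1 (-0.75) and SRM (-1.30) passed. Without the library with neither, OAZ1 passed (-0.41, adjusted p 0.0462).

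**Figure D4:**
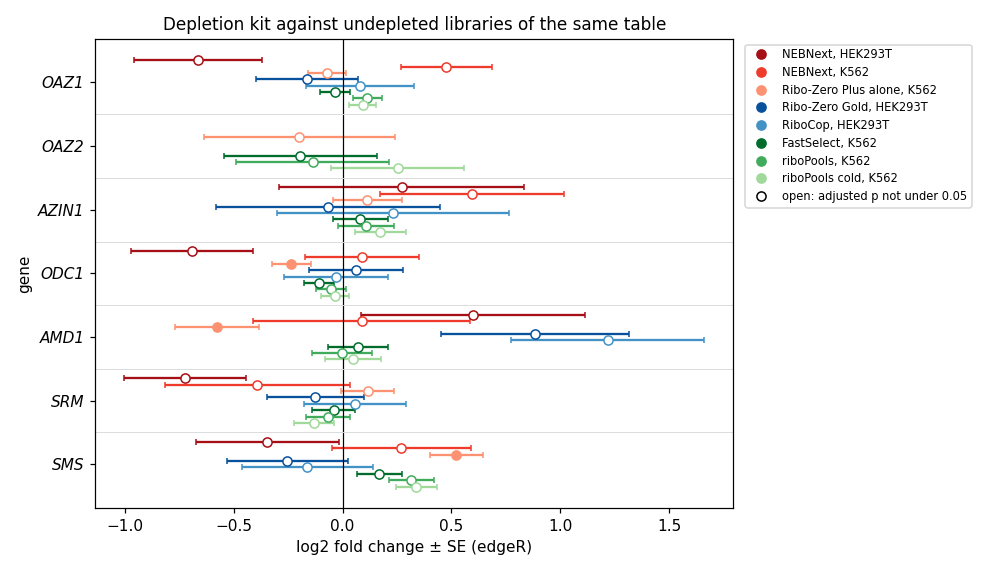
Log2 fold change ± SE (edgeR) of 7 members for each depletion against the undepleted libraries of the same experiment; filled points have an adjusted p under 0.05, and OAZ2 was tested in the K562 kit experiment only. ODC1, OAZ1 and SRM lie near -0.7 with NEBNext in HEK293T with open points, and the filled points are ODC1, AMD1 and SMS with Ribo-Zero Plus alone.

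Custom oligos in HEK293FT left the members close to their undepleted values, with 1 library on each side and therefore no test. ODC1 had 213.8 CPM with the oligos and 222 CPM without, a ratio of 0.963 (95% interval 0.8287 to 1.124 from counting error only). OAZ1 had 265.3 and 258.7 CPM (ratio 1.026, 0.8931 to 1.182), and SRM 244.8 and 245.3 CPM (0.9977, 0.8652 to 1.155). AMD1 had the highest ratio, 1.175 (0.9145 to 1.531), and SAT1 the lowest, 0.8228 (0.2776 to 3.297, from 21 and 4 counts). Every member's interval holds a ratio of 1. None of the 8 members differed 2-fold. Of the 5225 genes that averaged 100 counts or more, which include 6 of the members, 0% did.

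Beyond the 8 members, 25 other genes of the pathway and its supply were listed, and 24 have a row. Between the K562 kit libraries and HEK293T, 14 were tested, of which 3 were higher and 7 lower in K562, with a median log2 fold change of -0.33. Of all 5551 genes, 22% were higher and 22.3% lower, with a median of -0.01. Methionine salvage, which recovers methionine from the by-product of SRM and SMS, had all 5 listed genes tested, with 1 higher and 4 lower beside those shares. MTAP, the enzyme that opens this route, had 0 counts in all 4 and all 12 K562 libraries, out of 878057 and 26682990 counts, against 45 to 94.89 CPM in HEK293T and 75.51 and 76.6 CPM in HEK293FT. With the floor of 3 counts over both undepleted K562 kit libraries, MTAP was at least 47.56-fold lower than in HEK293T and at least 55.35-fold lower than in HEK293FT. Later steps of the route were lower in K562 for ADI1 (48.32 against 187 CPM, log2 fold change -1.84), ENOPH1 (25.55 against 70.98 CPM, -1.33) and MRI1 (38.01 against 94.7 CPM, -1.19), and higher for APIP (170 against 79.85 CPM, 1.19). Their edgeR adjusted p ranged from 3.72e-10 to 0.0117.

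Among the other called genes, ALDH18A1, which makes a precursor of ornithine, was lower in K562 (78.61 against 261.3 CPM, log2 fold change -1.60), as was OAT, the ornithine aminotransferase (224.6 against 331.4 CPM, -0.43). SLC3A2, a transporter subunit, was higher (379.2 against 240.5 CPM, 0.77). EIF5A, the factor that carries the hypusine made from spermidine, was lower (531.1 against 819.1 CPM, -0.53). DHPS, the enzyme of the first step of this modification, was higher (91.35 against 45.08 CPM, 1.05). The edgeR adjusted p of these genes ranged from 4.23e-11 (ALDH18A1) to 0.0375 (OAT), with 0.016 for DHPS. ALDH18A1, SLC3A2 and EIF5A were called in the same directions in the K562 size libraries against HEK293T. OAT, DHPS and ENOPH1 were not called there. The HEK293T value of DHPS rests on 3 and 10 counts, and in the bead and blocking kit libraries it had 84.03 to 98.17 CPM in K562 and 70.42 to 92.94 CPM in HEK293T. HEK293FT differed from HEK293T at 1 of the 14 (7.57% of all genes). MAT2A, which makes S-adenosylmethionine, had 1270 CPM in HEK293FT and 294.8 CPM in HEK293T (log2 fold change 2.23 ± 0.14, edgeR adjusted p 8.34e-52), and 337.8 CPM in the K562 kit libraries. With NEBNext in HEK293T, 1 of 15 tested was called (3.24% of all genes): ARG2, an arginase, at 74.76 against 18.11 CPM (2.07 ± 0.65, adjusted p 0.0478). The undepleted ARG2 value rests on 2 and 3 counts. Ribo-Zero Gold gave ARG2 54.07 and 59.31 CPM and RiboCop 19.21 and 58.52 CPM, without a call. Ribo-Zero Plus alone had 1 higher (ENOPH1) and 4 lower (ARG2, APIP, MRI1 and DHPS) of 19 tested, where 8.95% and 11.7% of all genes were.

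The genes most like ODC1 and OAZ1 across the 7 undepleted libraries were sought by the root mean square difference of log2(CPM + 1), each gene centred on its own mean, among 2021 genes that averaged 50 counts or more. For ODC1 these were TBL3 (0.0802), ATP5J2 (0.089) and GNG5 (0.0897), where the median over all genes compared was 0.42. OAZ1 was most like COX4I1 (0.101), DUT (0.12) and DYNC1I2 (0.126), with a median of 0.573. COX4I1 averaged 471.1 CPM in HEK293T, 562.9 in HEK293FT, 626.5 in the K562 kit experiment and 881.1 in the K562 size experiment, the same rising order as OAZ1. The 7 libraries share cell line, experiment and depth within each table.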

How the data were processed

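Whole-number counts per coding sequence were deposited by the authors as 4 tables, 1 per experiment, with 1 transcript per row, per the file headers. STAR, CASAVA 1.8 and the build GRCh38 are named in the submitters' processing notes. Their roles, the annotation, read filters and the handling of duplicates and of reads that match several genes are not given in the sources used here. Deposited RPM tables of the same rows were not used. Per the labels' protocols, monosomes were collected by ultracentrifugation after RNase I digestion and fragments were cut from a gel. The labelled sizes are given, which differ in part from the 15 to 34 nt of the protocol. Of the rows, 97.28% have a coding sequence in GENCODE release 29. Whether the authors counted on that annotation is not known. There are 31 gene symbols on more than 1 row, and 0 columns belong to no sample.

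The rule for the members uses names alone, but the members and the gene lists were chosen with earlier results of these data known. A listed K562 marker is not reported here. Named are all 8 members, the listed pathway genes that were called, and for ODC1 and OAZ1 the 3 genes with the most similar pattern. The test was edgeR's quasi-likelihood test (edgeR 4.0.16, limma 3.58.1, R 4.3.3) with TMM scaling. Low genes were removed by filterByExpr (minimum count 10). P-values were adjusted by Benjamini-Hochberg over all genes tested, and a gene was called at an adjusted p under 0.05. HEK293T kits were fitted over 8 libraries, and FastSelect, riboPools and cold elution over the 8 kit experiment libraries without Ribo-Zero Plus. Ribo-Zero Plus alone was fitted with these 8, and the mean of 4 with all 12, oligos and formaldehyde being additive terms. In the K562 size experiment depletion and size entered additively, so that 1 residual degree of freedom remains. Cell lines were compared in 1 fit over the 7 undepleted libraries of all tables, normalized together. Each SE was derived from the F statistic as the size of the log2 fold change divided by the root of F, and reported means are CPM of the library total. The fits were tested on simulated data.

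Replicates are separate libraries by their labels, and nothing there says that they are separate cultures, so p-values measure the spread between libraries, which may be technical. In the replicate pairs the chi-square per degree of freedom was 1.027 to 1.205. The RiboCop pair differed by no more than sampling noise (p 0.103) and was kept as 2 libraries, since its barcodes and totals differ. Intervals of counts are exact Poisson at the 95% level, a floor is 3 counts of the library total, and both cover counting error only, since PCR copies are not independent molecules. Alternatives were total count scaling, DESeq2 1.42.0, no filter, other sets of libraries, the replicate number as a block, and leaving out each library. Leaving out HEK293T libraries for the difference of the NEBNext effects was added after seeing the data.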

Additional observations from a re-analysis of the deposited data

How the results depend on the processing

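Of 828 values of single members under alternatives, 780 kept their direction or stayed uncalled, 36 lost a call, 11 gained one and 1 reversed. That 1 was SMS in K562 against HEK293T (0.52 on the log2 scale with the bead and blocking kits). A further 80 changed sign with no call on either side, and are among the 780. The number of members called moved as follows. For the K562 kit libraries against HEK293T it was 5, and 2 under total count scaling, 2 with DESeq2 and 0 to 4 when each library was left out. For the K562 size libraries against HEK293T it was 2, and 1 without any single library, OAZ1 being kept in each. Against HEK293FT it was 5, and 2 with DESeq2 and 3 to 4 without each K562 library. For Ribo-Zero Plus alone it was 3, and 1 with DESeq2, 0 with all 12 libraries and 1 to 2 without each undepleted library. For the mean of 4 Ribo-Zero Plus libraries it was 0, and 1 with DESeq2 and 0 to 3 without each library.

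Counts over all genes moved by over 1.5 times in most comparisons: 56 to 153 for NEBNext in HEK293T (143 reported), 16 to 75 for NEBNext in K562 (101), 1637 to 6724 for the K562 kit libraries against HEK293T (2461), 528 to 1674 for the size libraries (1617), 170 to 444 for HEK293FT against HEK293T (420), 1734 to 5234 for the K562 kit libraries against HEK293FT (3367), 231 to 2104 for Ribo-Zero Plus alone (2080), 0 to 3575 for its mean of 4 (1431), and in HEK293FT 34 of at least 2-fold with a mean of at least 50 counts, and 68 of at least 1.5-fold (0 reported). Total count scaling turned the split of higher and lower calls from 880 and 737 to 731 and 943 for the size libraries against HEK293T, from 269 and 151 to 181 and 263 for HEK293FT against HEK293T, and from 8 and 6 to 4 and 6 for the difference of the NEBNext effects. The replicate block left 0 members called for the HEK293T kits and for FastSelect, riboPools and cold elution; replicate numbers are shared by 2 libraries per group and are not known to pair them. For NEBNext in K562, leaving out a library leaves 0 residual degrees of freedom and was not run. Depth limits SAT1, OAZ2 and the HEK293T values most. The cause of these changes was not tested.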
